A study of Mus musculus with 3 samples.

Results

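The 40 genes described here are classical targets of interferon signalling, the interferon-induced genes. They were listed by name, with earlier results of these data known. All 40 were found among the 17551 genes of the expression table of 4668 single cells from 4 mouse brains. The brains came from female C57Bl/6 mice aged 2 to 3 months that either were naïve or carried brain metastases grown from E0771 cells, a murine breast cancer line, about 2 weeks after carotid injection. Cell suspensions were enriched for immune cells on a Percoll gradient. Each brain was stained with 6 DNA-tagged antibodies (CITE-seq, which counts surface proteins beside the RNA) and with its own hashtag antibody, and the 4 brains were then pooled into 1 run of the 10x Genomics droplet system. The labels do not say which of the hashtags mark naïve brains, so the brains are called by hashtag number and naïve brains were not compared with metastasis-bearing ones. The antibody pool also held tags for CD25, CD3, CD4, CD11b and CD86, and only the CD45 tag was used here.

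Interferons are secreted proteins that warn cells of infection or damage. Type I interferons bind the receptor formed by Ifnar1 and Ifnar2, and interferon gamma binds the receptor formed by Ifngr1 and Ifngr2. Both receptors act through Janus kinases and STAT proteins. A complex that contains Stat2 and Irf9 binds a short DNA sequence, the interferon-stimulated response element, in front of many target genes, and the products of those genes block viral entry, replication and assembly. In the brain, microglia, endothelial cells and infiltrating leukocytes can all respond to interferon.

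The authors deposited 11 clusters of cells, numbered 0 to 10, and a hashtag class for each cell. Cluster 3 (404 cells) and cluster 6 (223 cells) were the immune clusters: 300 or more CD45 tags were counted on 99.8% and 91.0% of their cells, against 1.71% to 23.1% in the other clusters. Cluster 3 mixed markers of microglia, marrow-derived macrophages, lymphocytes and other leukocytes, and cluster 6 was led by neutrophil granule genes. Cluster 1 was choroid plexus-like, cluster 4 endothelial-like and cluster 9 smooth muscle-like by their markers. Clusters 0, 2, 5, 7, 8 and 10 were given no cell type name. Esx1, listed as a marker of the carcinoma, led cluster 0. The immunoglobulin genes Iglc1, Igkc, Jchain, Ighm and Iglc2 led cluster 2, followed by histone and cell cycle genes, which also led cluster 7. In cluster 2 the summed level of 7 B cell markers, Igkc among them, was 187.7 in the hashtag 1 brain. It was 0.343, 0.394 and 0.371 in the hashtag 2 to 4 brains. In the hashtag 3 and 4 brains 8 carcinoma markers summed to 13.3 and 11.9 in cluster 2 and to 13.3 and 11.6 in cluster 0. They were not particular to these clusters, with 12.6 and 11.7 in cluster 7 and 10.5 and 10.2 in cluster 10. In smooth muscle-like cluster 9 they summed to 9.73 and 8.23, and in immune cluster 3 to 1.75 and 1.54. The hashtag 1 to 4 brains gave 844, 410, 1385 and 2029 cells, with median totals of 4370.5, 5599.5, 12450 and 12806 unique molecules (UMIs) a cell. The brains thus differed in depth, and in 47.2%, 37.6%, 69.6% and 79.6% of the cells the assigned hashtag supplied 80% or more of the hashtag counts. A level is the mean over cells of the UMIs of a gene per 10000 UMIs of the cell, and is given only for a cluster and brain with at least 20 cells.

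To show the sequence that links these genes, promoters from RefSeq (build GRCm38.p6) were searched on both strands for GAAA, any 2 bases and GAAA again, the core of the interferon-stimulated response element, with overlapping matches counted. A promoter here runs from 250 bases before to 50 bases after the start of transcription. Of the 40 genes, 32 had an entry, and 19 of those 32 (59.4%) held a match, against 3.99% of 27025 genes. TTCNNNGAA, the core of the gamma-activated sequence bound by STAT dimers, was present in 10 of the 32 (31.3%), against 9.55% of all genes. The 6 genes with the most UMIs among those with a match to the response element are shown 5′ to 3′ on the strand of the gene, with the matches in capitals. Where a match lies on the opposite strand it reads TTTC, any 2 bases and TTTC.
Ifitm3: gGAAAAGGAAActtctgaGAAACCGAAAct
Bst2: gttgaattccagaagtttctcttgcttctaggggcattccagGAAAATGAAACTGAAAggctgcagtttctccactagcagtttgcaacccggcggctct
Isg15: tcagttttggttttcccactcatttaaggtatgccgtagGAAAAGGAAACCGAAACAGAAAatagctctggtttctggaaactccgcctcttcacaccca
Oas1a: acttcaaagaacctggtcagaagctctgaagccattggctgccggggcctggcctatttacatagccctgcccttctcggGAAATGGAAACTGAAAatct
Ifit1: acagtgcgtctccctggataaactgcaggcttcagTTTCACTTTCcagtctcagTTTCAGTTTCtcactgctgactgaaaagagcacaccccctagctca
Rsad2: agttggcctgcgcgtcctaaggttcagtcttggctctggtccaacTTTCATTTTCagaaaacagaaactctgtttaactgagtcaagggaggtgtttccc
The Ifitm3 stretch (chr7:141010714-141010743, minus strand) lies just after the start, with matches beginning at positions 3 and 20. The Bst2 stretch (chr8:71537545-71537644, minus strand) holds matches at -130 and -124, and the Isg15 stretch (chr4:156200836-156200935, minus strand) holds 3, at -78, -72 and -66. The Oas1a stretch (chr5:120907526-120907625, minus strand) ends next to the start, with matches at -20 and -14. The Ifit1 stretch (chr19:34640750-34640849, plus strand) holds matches at -104 and -85, and the Rsad2 stretch (chr12:26456518-26456617, minus strand) holds 1 at -120. Overlapping matches in Bst2, Isg15 and Oas1a appear as a single run of capitals. Matches were also found for Ifit3, Ifit3b, Stat2, Gbp2, Gbp3, Gbp7, Ifih1, Ddx58, Trim30a, Igtp, Irgm1, Slfn5 and Eif2ak2. A match is a description of letters and was not tested as a binding site.

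The 40 genes are spread over 15 chromosomes, with 9 on chromosome 11 and the 4 Ifit genes side by side on chromosome 19. They gave 146008 UMIs in all, from 116 for Slfn5 to 55902 for Ifitm3. Summed over the 40 genes, the level was highest in immune cluster 3, where it was 45.9, 38.8, 84.3 and 113.2 UMIs per 10000 in the hashtag 1 to 4 brains. In endothelial-like cluster 4 it was 49.4, 46.9, 50.7 and 44.4. The endothelial-like cells thus had close to the same summed level in every brain, and cluster 3 lay below them in the hashtag 1 and 2 brains and above them in the hashtag 3 and 4 brains. Choroid plexus-like cluster 1 had the lowest levels, 8.08, 8.42, 10.9 and 14.4, and did not overlap with cluster 3 or 4. By the median over brains the clusters ran from 3 (65.1), 4 (48.1), 6 (37.4), 7 (36.7) and 8 (35.0) through 9 (28.8), 0 (24.8) and 10 (24.6) to 2 (19.6), 5 (17.3) and 1 (9.64). Neighbours in that order overlapped over the brains, except clusters 4 and 6. Clusters 6, 7 and 10 rest on 2 brains each.

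**Figure D1:**
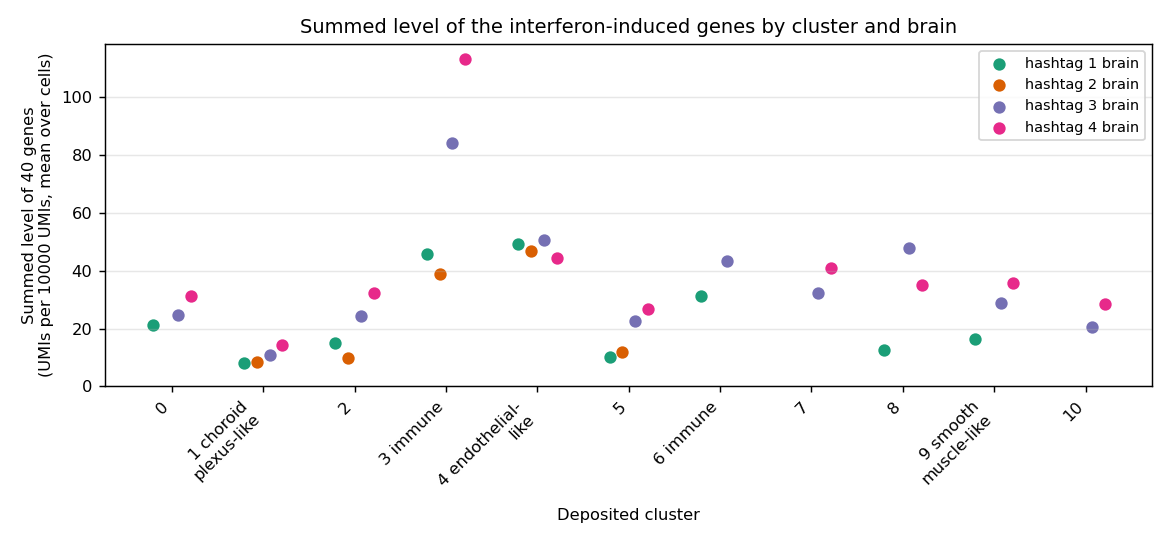
Summed level of the 40 genes (y axis, UMIs per 10000 UMIs, mean over cells) in each deposited cluster (x axis), with 1 point for each brain that has at least 20 cells in the cluster. Cluster 3 spans 38.8 to 113.2 over the brains, cluster 4 spans 44.4 to 50.7 and cluster 1 spans 8.08 to 14.4.

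Gene by gene, 29 of the 40 had their highest median level in cluster 3, 6 in cluster 4, 3 in cluster 7 and 1 each in clusters 6 and 10, and 20 had their lowest in cluster 1. Ifi204, an interferon-inducible DNA sensor, was the only member with most of its UMIs in 1 cluster (52.1% in cluster 3). Of the 40, 32 were higher in cluster 3 than in cluster 1 in all 4 brains. Among the 35 genes seen in at least 5% of cells the count was 29, where 27.8% of all 9355 genes seen that often did the same. Cluster 4 was above cluster 1 in all 4 brains for 36 of the 40 and 32 of the 35 (background 38.4%). Cluster 3 was above cluster 4 in all 4 brains for only 9 of the 40 and 8 of the 35 (background 11.8%). Cluster 2 was above cluster 1 for 14 of the 40 (13 of the 35, background 26.6%) and cluster 5 for 13 of the 40 (13 of the 35, background 16.8%). Clusters were made from the RNA, so these are descriptions with no test. Choroid plexus transcripts were present in the other clusters too: the summed level of 10 choroid plexus markers in cluster 3 was 223, 205, 190 and 269 in the hashtag 1 to 4 brains, and in cluster 4 it was 752, 761, 366 and 376.

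**Figure D2:**
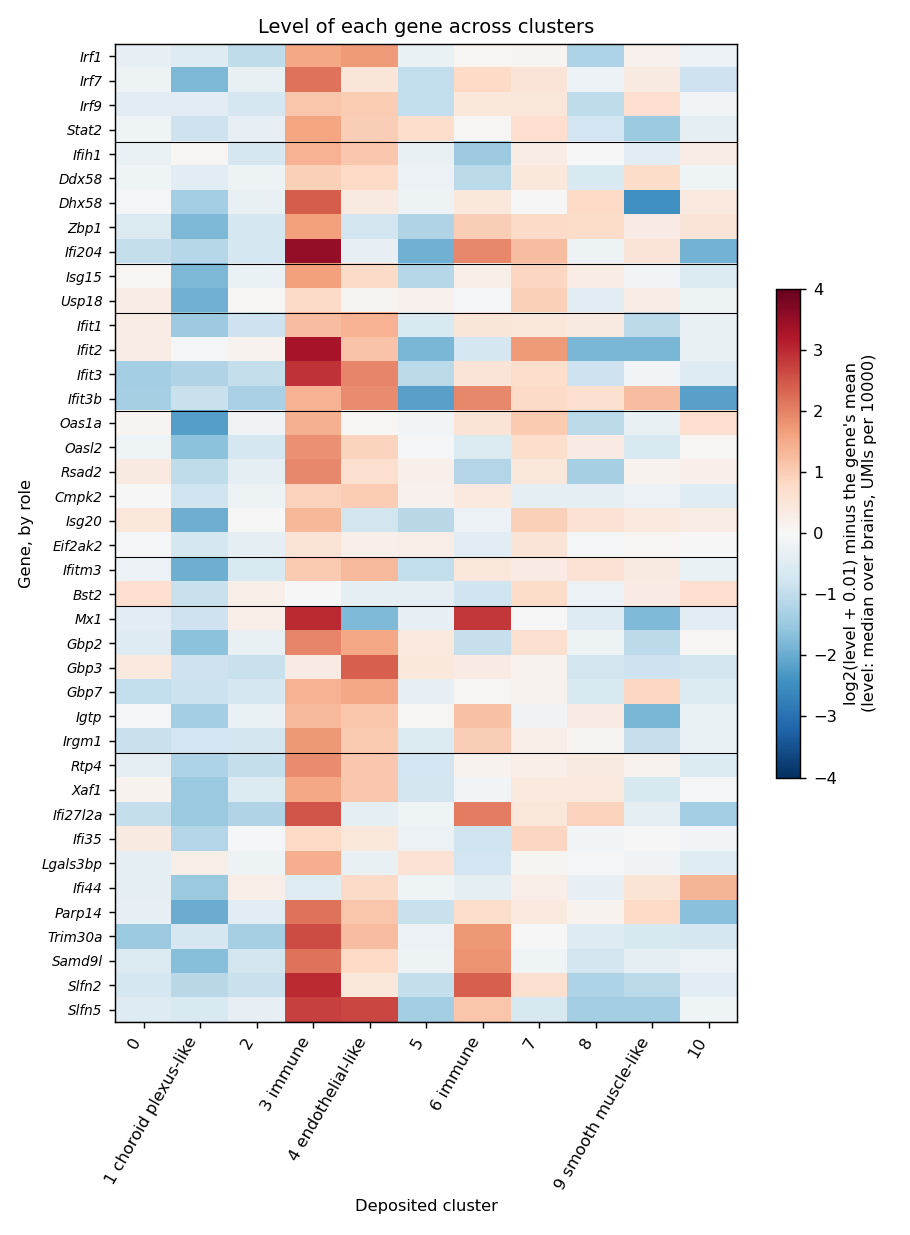
Level of each of the 40 genes (rows, grouped by role) in each deposited cluster (columns), as log2 of the median level over brains plus 0.01, minus the mean of that gene over the 11 clusters. Red is above the gene's own mean and blue below it. The columns of clusters 3 and 4 are mostly red and the column of cluster 1 is mostly blue.

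Among the transcription factors of the response, Irf7, the factor that amplifies type I interferon production, was furthest apart between immune and endothelial-like cells in the hashtag 3 and 4 brains. Its level in cluster 3 was 0.749, 0.876, 3.59 and 4.43 UMIs per 10000 in the hashtag 1 to 4 brains. In cluster 4 it was 0.432, 0.970, 0.813 and 0.588, so cluster 3 was higher in 3 of the 4 brains, the hashtag 2 brain being the exception. Stat2 and Irf9, parts of the factor that binds the response element, were at medians over brains of 0.222 and 0.318 in cluster 3. Irf1, an early factor downstream of interferon gamma, was at a median of 0.612 in cluster 3 and 0.677 in cluster 4, and its highest level in cluster 3 was 1.07 in the hashtag 1 brain. Unlike Irf7, Irf1 was thus not highest in the hashtag 4 brain.

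Of the 5 sensors of foreign nucleic acid, Ifi204 and Zbp1 were highest in cluster 3 in every brain among the 5 clusters with at least 20 cells in each brain. Ifi204 in cluster 3 was 0.380, 0.351, 1.64 and 1.91 UMIs per 10000, and in cluster 4 it was between 0.0572 and 0.140. The ranges of the 2 clusters did not overlap. Zbp1, a sensor of nucleic acid in the Z conformation, was 0.576, 0.442, 1.21 and 1.89 in cluster 3 and 0.232, 0.0133, 0.101 and 0.463 in cluster 4. Cluster 3 was higher in each brain, although the ranges over brains overlapped. The RNA helicases Ifih1 (MDA5), Ddx58 (RIG-I) and Dhx58 (LGP2) had median levels of 0.241, 0.270 and 0.281 in cluster 3. Dhx58 had no UMI in cluster 3 of the hashtag 2 brain.

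Isg15, the ubiquitin-like protein attached to target proteins after interferon, was 2.16, 1.32, 5.81 and 9.41 UMIs per 10000 in cluster 3. In cluster 4 it was 2.55, 2.73, 1.81 and 1.72, and in cluster 1 it was 0.200, 0.282, 0.437 and 0.761. The order of the brains in cluster 4 was thus not that of cluster 3, since the endothelial-like cells had their higher levels in the hashtag 1 and 2 brains. Usp18, the protease that removes Isg15 from proteins and restrains receptor signalling, was 0.383, 0.270, 0.397 and 0.827 in cluster 3 and 0.305, 0.261, 0.224 and 0.230 in cluster 4. Its highest median was in cluster 7 (0.209 and 0.673 in the hashtag 3 and 4 brains), which overlaps the range of cluster 3.

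The IFIT proteins bind viral RNA. Ifit1 was 0.122, 0.200, 1.49 and 2.301 UMIs per 10000 in cluster 3 and 1.03, 1.73, 0.216 and 0.838 in cluster 4. In the hashtag 1 and 2 brains it was higher in endothelial-like than in immune cells, and in the hashtag 3 and 4 brains it was lower. Ifit2 was at a median of 0.343 in cluster 3 with 62 UMIs there, and Ifit3 at 0.878 with 187. Ifit3 and Ifit3b are near-identical neighbouring copies, so the split of molecules between them is uncertain, and Ifit3b gave 123 UMIs in all cells.

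Of the enzymes that act on viral RNA or replication, Rsad2 (viperin) followed the pattern of Ifit1. Its level was 0.400, 0.219, 1.74 and 2.54 UMIs per 10000 in cluster 3 and 0.511, 1.05, 0.367 and 0.308 in cluster 4. Oas1a, which makes the activator of the nuclease RNase L, was 0.830, 0.156, 0.696 and 1.42 in cluster 3 and 0.0934, 0.308, 0.278 and 0.387 in cluster 4. In Oas1a the hashtag 1 brain was second highest in cluster 3, and only the hashtag 2 brain was higher in cluster 4. Oasl2, a relative of the same enzyme family, was 0.619, 0.103, 0.597 and 1.24 in cluster 3. Isg20, an RNA exonuclease, was 0.160, 0.378, 0.858 and 0.938 in cluster 3 and was above cluster 4 in each brain, where it ranged from 0.0992 to 0.396. Cmpk2, a nucleotide kinase encoded next to Rsad2, and Eif2ak2, the kinase PKR, were at medians of 0.188 and 0.231 in cluster 3.

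The membrane factors Ifitm3 and Bst2 had their highest medians in clusters 4 and 7. Ifitm3, which blocks entry of viruses at the endosome, was 27.9, 21.8, 35.3 and 24.6 UMIs per 10000 in cluster 4. In cluster 3 it was 14.6, 11.3, 29.2 and 33.0, so the endothelial-like cells were higher in 3 of the 4 brains. Bst2 (tetherin), which holds budding viruses at the cell surface, was 3.70, 4.97, 4.80 and 7.86 in cluster 3 and 3.96, 2.47, 7.56 and 9.49 in cluster 2. In the hashtag 3 and 4 brains cluster 7 had 7.44 and 8.96. For Bst2, cluster 2 was above cluster 3 in 3 of the 4 brains, the hashtag 2 brain being the exception.

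The interferon-induced GTPases act on viruses and on vacuoles that hold pathogens. Gbp2 and Irgm1 were at medians of 0.528 and 0.441 UMIs per 10000 in cluster 3, and Igtp at 0.250. Gbp3 and Gbp7 had their highest medians in cluster 4 (0.303 and 0.396), where Gbp3 was above cluster 3 in all 4 brains. Mx1 gave 57 of its 150 UMIs in cluster 3 and 2 in cluster 4.

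Among the remaining genes, Ifi27l2a, a small hydrophobic protein, and Slfn2, a regulator of lymphocyte quiescence, were highest in cluster 3 in every brain. Ifi27l2a was 10.2, 9.44, 13.4 and 22.5 UMIs per 10000 in cluster 3, and in clusters 1, 2 and 4 it ranged from 0.672 to 2.05. In the 2 brains with enough cells it was 5.56 and 11.6 in cluster 6. Clusters 3 and 6 were thus above clusters 1, 2 and 4 without overlap. Among the 5 clusters with at least 20 cells in every brain, cluster 5 had the second highest median of Ifi27l2a. Cluster 3 lay above cluster 5 without overlap too. Slfn2 was 1.58, 1.06, 2.98 and 2.42 in cluster 3 and 0.453, 0.356, 0.330 and 0.229 in cluster 4, also without overlap.

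Rtp4, a chaperone of receptors, was 0.731, 0.288, 1.84 and 2.13 in cluster 3 and 0.808, 0.893, 0.327 and 0.622 in cluster 4, which repeats the exchange of order seen for Ifit1 and Rsad2. Xaf1, a pro-apoptotic factor, was 0.834, 0.339, 1.04 and 1.27 in cluster 3 and 0.720, 0.786, 0.469 and 0.625 in cluster 4. In the hashtag 2 brain Xaf1 was higher in the endothelial-like cells, and in the other brains in the immune cells. Ifi35 was 0.636, 0.919, 1.11 and 1.34 in cluster 3, and its highest median was in cluster 7 (0.840 and 1.31). Lgals3bp, a secreted glycoprotein, was 0.714, 1.67, 2.304 and 2.41 in cluster 3 and 0.774, 0.764, 0.938 and 0.915 in cluster 1. Parp14, Trim30a and Samd9l were at medians of 0.473, 1.15 and 0.746 in cluster 3, and Slfn5 gave 52 of its 116 UMIs there. Ifi44 was the member with its highest median in cluster 10, and only 17 of its 644 UMIs were in cluster 3.

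The brain with the highest level was not the same in all cell types. In immune cluster 3, the hashtag 1, 2, 3 and 4 brains were highest for 3, 0, 4 and 33 of the 40 genes (background 28.6%, 27.3%, 25.7% and 18.4% of all genes). In endothelial-like cluster 4 they were highest for 15, 18, 2 and 5 (background 23.3%, 30.2%, 19.2% and 27.3%). In cluster 1 the hashtag 4 brain was highest for 25 of the 40 (background 32.6%), in cluster 2 for 25 (26.9%) and in cluster 5 for 30 (39.5%). The hashtag 3 brain was highest for 10, 2 and 8 genes in clusters 1, 2 and 5 (background 20.2%, 22.7% and 25.6%). The hashtag 1 brain was highest for 3, 5 and 0 (21.8%, 21.9% and 16%) and the hashtag 2 brain for 2, 8 and 2 (25.4%, 28.6% and 18.9%). Since the 4 brains are single animals of unknown condition, these counts describe the brains and carry no test.

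**Figure D3:**
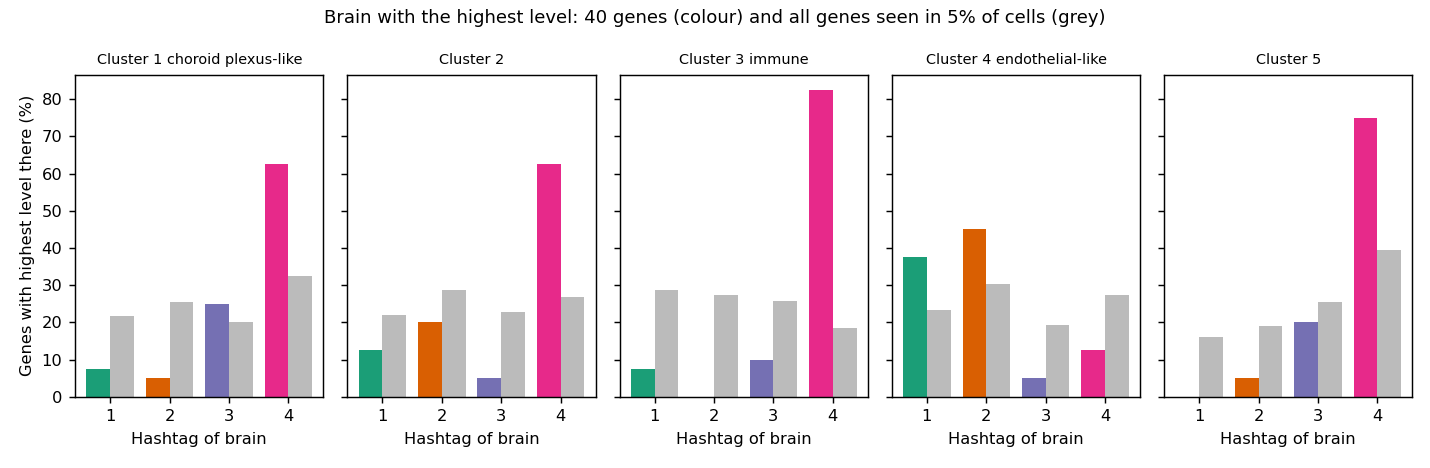
Share of genes (y axis, percent) whose highest level was in the hashtag 1, 2, 3 or 4 brain (x axis), in each of the 5 clusters with at least 20 cells in every brain. Coloured bars are the 40 interferon-induced genes and grey bars all genes seen in at least 5% of cells. The hashtag 4 bar is the tallest coloured bar in clusters 1, 2, 3 and 5, and the hashtag 2 bar is the tallest in cluster 4.

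The pattern in cluster 4 is not visible in the plain sum, because Ifitm3, Bst2, Lgals3bp and Ifi27l2a supply 73.1% of the UMIs of the 40 genes there. Summed over the other 36 genes, cluster 4 had 15.9, 18.6, 10.0 and 12.2 UMIs per 10000 in the hashtag 1 to 4 brains. Cluster 3 had 16.7, 11.3, 34.6 and 47.4. The hashtag 1 and 2 brains thus had the higher levels among endothelial-like cells and the lower levels among immune cells, and the hashtag 1 brain had nearly equal levels in both. By role, the IFIT family summed to 1.75, 3.45, 0.825 and 1.29 in cluster 4 and to 0.987, 0.864, 3.29 and 4.35 in cluster 3. The GTPases summed to 1.98, 2.26, 0.848 and 1.39 in cluster 4 and to 1.02, 1.16, 2.35 and 3.97 in cluster 3, so both roles were higher in the endothelial-like cells of the hashtag 1 and 2 brains and lower in those of the other brains.

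Other quantities differed between the brains in these clusters. In cluster 3 the summed level of 10 microglia markers was 57.4, 66.3, 18.2 and 19.6 UMIs per 10000 in the hashtag 1 to 4 brains, that of 10 marrow-derived macrophage markers 21.3, 20.8, 42.1 and 46.8, and that of 7 B cell markers 32.9, 65.3, 8.62 and 2.00. No microglia marker was at 0 in any brain. The make-up of cluster 3 therefore moved with the member levels, and its part in them was not tested. The immune subclusters further on are descriptions only. In cluster 4 the 10 endothelial markers summed to 105, 106, 91.1 and 57.7, and 4 erythroid markers to 3.75, 54.8, 81.4 and 40.2. The median depth of cluster 4 was 3255.5, 3087.5, 4015 and 8891.5 UMIs a cell. In cluster 2 the 10 choroid plexus markers summed to 1874, 1805, 220 and 189 in the hashtag 1 to 4 brains. Its median depth was 5223, 4920.5, 18783 and 19200.5 UMIs a cell, with only 41 and 24 cells from the hashtag 1 and 2 brains. In cluster 5 the choroid plexus markers summed to 2610, 2794, 1260 and 934. The part of depth and of these transcripts in the order of the brains was not tested. Kept to cells whose assigned hashtag supplied 80% or more of the hashtag counts, 15, 19, 1 and 5 genes were highest in the hashtag 1 to 4 brains in cluster 4, and 5, 0, 4 and 31 in cluster 3, although 7 and 18 cells then remained in cluster 3 of the hashtag 1 and 2 brains.

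Cells can reach the same mean through many cells with few molecules or few cells with many. Each cell was therefore thinned to 2495 UMIs, the lowest total of any cell, and the members with at least 1 UMI were counted. No cell had to be left out. At least 5 of the 40 genes were seen in 87.4% of the cells of cluster 3 (95% exact binomial interval 83.7% to 90.5%, counting error only), 42.4% in cluster 4 (36.7% to 48.2%), 39.2% in cluster 7 and 30.5% in cluster 6. The shares were 25.8% in cluster 2, 23.5% in cluster 9, 23.3% in cluster 0, 19.7% in cluster 10, 17.7% in cluster 5 and 17.3% in cluster 8, and the lowest was 4.32% (3.07% to 5.88%) in cluster 1. The part of free RNA in the droplets in these shares was not tested. Before thinning the median depth was 3815 UMIs in cluster 3 and 7282.5 in cluster 1. Without thinning the shares were 93.8% in cluster 3, 70.8% in cluster 4 and 39.1% in cluster 1.

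**Figure D4:**
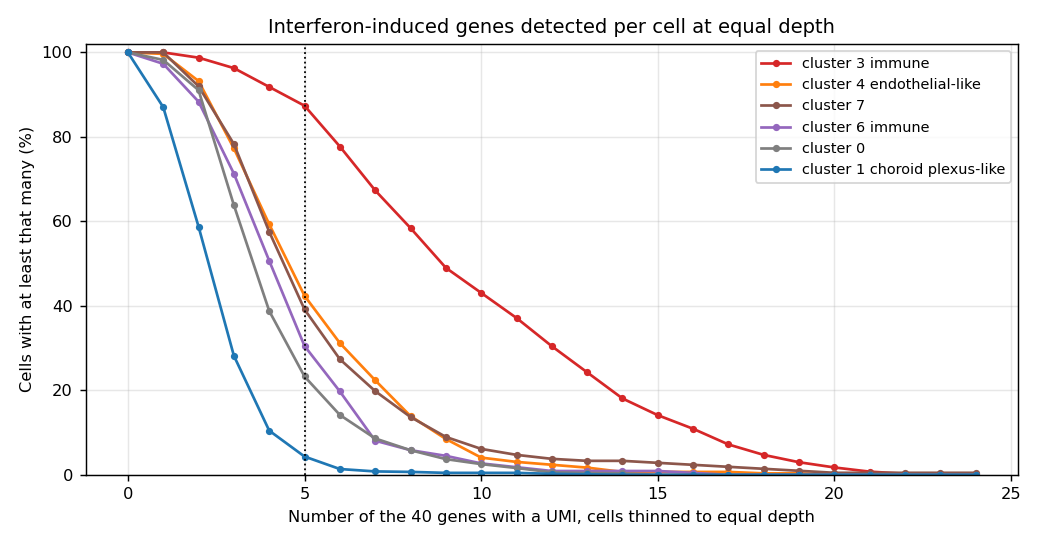
Share of cells (y axis, percent) with at least a given number of the 40 genes detected (x axis) after each cell was thinned to 2495 UMIs, for 6 of the 11 clusters. The dotted line marks 5 genes, where cluster 3 is at 87.4% and cluster 1 at 4.32%.

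By brain, the share with at least 5 genes in cluster 3 was 61.9%, 64.7%, 88.4% and 93.3% in the hashtag 1 to 4 brains. In cluster 4 it was 56.9%, 55.4%, 22.2% and 40.7%. The endothelial-like cells of the hashtag 1 and 2 brains were thus at shares close to those of the immune cells of the same brains, and in the hashtag 3 and 4 brains the shares stood far apart. In cluster 1 the shares were 2.41%, 1.94%, 5.52% and 8.42%. The intervals of the hashtag 1 and 3 brains in cluster 4 (44.7% to 68.6% and 13.7% to 32.8%) did not overlap, which covers counting error only.

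The 627 cells of clusters 3 and 6 were clustered again on 119 marker genes of cell types, none of them a member. For each subcluster the UMIs of the 40 genes were pooled over cells and divided by all UMIs of those cells, a share that differs from the mean over cells used as the level elsewhere. The marrow-derived-like subcluster (95 cells) had the highest pooled value of the named subclusters, 124.9 UMIs per 10000 (95% exact Poisson interval 121.3 to 128.5, counting error only). T cell-like cells (69) had 86.1, NK cell-like cells (37) 81.7 and B cell-like cells (38) 73.3. Microglia-like cells (37) had 53.5, but immunoglobulin genes such as Igkc and Jchain also led that subcluster. Neutrophil-like cells (109) had 49.5 and granule precursor-like cells (51), led by Mpo and Elane, had 23.1 (21.1 to 25.3). As means over cells the same subclusters had 128.9, 90.8, 81.7, 74.9, 51.2, 50.1 and 23.9, in the same order. With the brains pooled, the named subclusters thus ran from the marrow-derived-like cells through the lymphocyte-like cells to the granule precursor-like cells. The hashtag 1 to 4 brains gave 9, 1, 43 and 42 marrow-derived-like cells and 5, 4, 27 and 33 T cell-like cells. They gave 80, 4, 10 and 15 neutrophil-like cells and 44, 1, 4 and 2 granule precursor-like cells. An order of cell types therefore cannot be told apart from an order of brains in these pooled values.

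In the hashtag 3 and 4 brains, which alone had at least 20 cells of each, the marrow-derived-like cells had mean levels over cells of 120.3 and 150.5 UMIs per 10000 and the T cell-like cells 74.4 and 118.5. The hashtag 4 brain was higher in both, and the Spp1- and Pf4-led subcluster had 58.4 and 69.6. With fewer, larger subclusters (Leiden resolution 0.5), 156 microglia-like cells had 42.2, 62.6 and 94.1 in the hashtag 2, 3 and 4 brains. Within the marrow-derived-like cells the level was 9.06 for Isg15, 5.56 for Irf7, 24.5 for Ifi27l2a and 2.65 for Ifi204. In the microglia-like cells the levels were 3.20, 2.08, 10.7 and 0.506, and in the granule precursor-like cells 0.658, 0.355, 3.16 and 0.0630. With the brains pooled, each of those 4 genes was highest in the marrow-derived-like and lowest in the granule precursor-like cells among these 3 subclusters. Most marrow-derived-like cells came from the hashtag 3 and 4 brains and most granule precursor-like cells from the hashtag 1 brain. The hashtag 1 to 4 brains gave 4, 17, 5 and 11 microglia-like cells. Cell type and brain therefore cannot be told apart in this comparison.

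To compare immune with other cells without a class made from RNA, cells with 300 or more CD45 tags were set against the rest within each brain. The antibody-defined classes allow a test over the 4 brains, and 35 of the 40 genes passed the filter of a UMI in at least 5% of cells. The summed level was 31.9, 32.1, 66.7 and 82.4 UMIs per 10000 in tag-positive cells of the hashtag 1 to 4 brains and 15.4, 15.6, 24.4 and 29.9 in tag-negative cells. Tag-positive cells were higher in each of the 4 brains. In limma, with the brain as a block, 12 of the 35 genes were higher in tag-positive cells at a Benjamini-Hochberg adjusted p of at most 0.05, where 7.6% of all 9355 genes were. None was lower by limma or by edgeR (limma background 2.94%). Over all genes 711 were higher and 275 lower. With UMI counts summed over cells these became 552 and 14, and with median-of-ratios scaling 455 and 31. The median log2 difference was 0.81 for the 35 genes and -0.06 for all 9355.

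Ifi27l2a rose most. Its level was 0.990, 0.761, 0.797 and 0.969 UMIs per 10000 in tag-negative cells of the hashtag 1 to 4 brains and 5.67, 6.42, 11.02 and 15.4 in tag-positive cells, a log2 difference of 3.20 (SE 0.27, limma adjusted p = 0.000244). The lowest tag-positive level over the brains, 5.67, was above the highest tag-negative level, 0.990. Slfn2 went from 0.112, 0.0989, 0.149 and 0.153 to 0.894, 0.735, 2.21 and 1.68, a log2 difference of 2.58 (SE 0.23, limma adjusted p = 0.000307). Trim30a, a ubiquitin ligase that dampens innate signalling, was higher by 1.96 (SE 0.25, limma adjusted p = 0.0022), and Samd9l, an antiviral and growth-restraining factor, by 1.61 (SE 0.17, limma adjusted p = 0.000852). These 4 genes passed the threshold under each of the 15 alternative analyses. Ifi204 was higher by 2.27 (SE 0.37, limma adjusted p = 0.00736) and missed the threshold only with a pseudocount of 1. Zbp1 was higher by 1.59 (SE 0.21, limma adjusted p = 0.0026) and missed it only without the brain as a block (limma adjusted p = 0.0637).

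The other 6 calls were less stable. Irf7 went from 0.223, 0.278, 0.383 and 0.407 to 0.444, 0.572, 2.67 and 3.03 UMIs per 10000, a log2 difference of 1.68 (SE 0.35, limma adjusted p = 0.0227), and its adjusted p reached 0.191 among the alternatives. Isg15 went from 0.634, 0.720, 1.22 and 1.41 to 0.952, 1.63, 4.24 and 6.60, higher by 1.37 (SE 0.28, limma adjusted p = 0.0188) and past the threshold in 6 of 15 alternatives. Parp14 (1.15), Ifitm3 (1.04), Oas1a (0.90) and Xaf1 (0.89) also passed, with adjusted p of 0.0192, 0.026, 0.0174 and 0.0307 in limma. Their largest adjusted p among the alternatives was 0.147, 0.198, 0.257 and 0.378. Without the hashtag 3 brain 6 of the 35 genes were higher in place of 12, and without the brain as a block also 6.

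**Figure D5:**
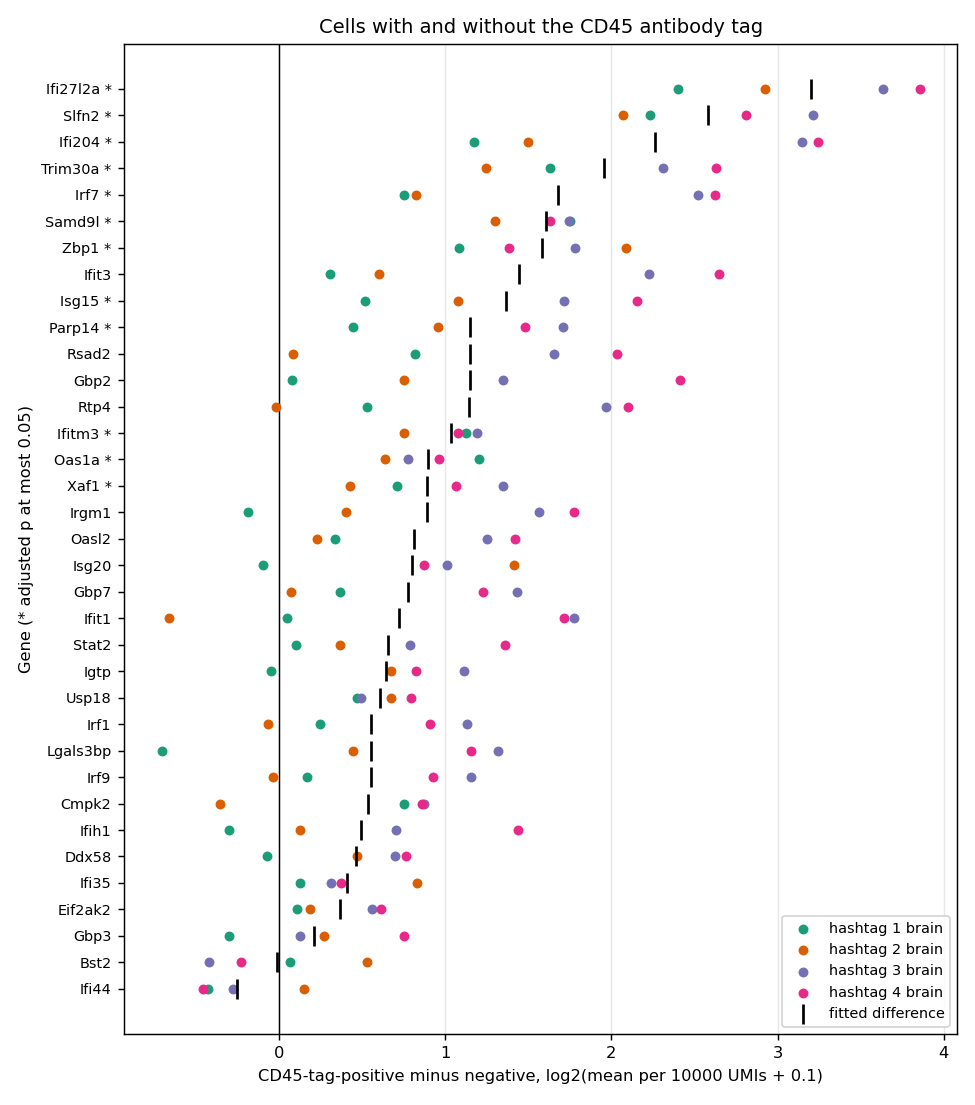
Difference between CD45-tag-positive and tag-negative cells (x axis, log2 of the mean UMIs per 10000 plus 0.1) for the 35 tested genes (y axis), with a point for each brain and a bar for the fitted difference. Stars mark the 12 genes with a limma adjusted p of at most 0.05. Ifi27l2a lies highest at 3.20 and Ifi44 lowest at -0.25.

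By role, 1 of 4 transcription factors (Irf7), 2 of 4 tested sensors (Ifi204 and Zbp1), 1 of 2 in the Isg15 group (Isg15), 1 of 6 enzymes (Oas1a), 1 of 2 membrane factors (Ifitm3) and 6 of 10 other genes rose. No tested IFIT gene (2) and no tested GTPase (5) passed in limma. Ifit1 had differences of 0.05, -0.66, 1.78 and 1.72 in the hashtag 1 to 4 brains, a fitted 0.72 (limma adjusted p = 0.29), and Ifit3 had 0.31, 0.60, 2.22 and 2.64 (fitted 1.45, limma adjusted p = 0.0555). Their differences were near 0 or negative in the hashtag 1 and 2 brains for Ifit1, and positive in all 4 brains for Ifit3. Bst2 was 2.59, 2.89, 6.50 and 8.23 UMIs per 10000 in tag-negative cells and 2.72, 4.23, 4.83 and 7.02 in tag-positive cells, a log2 difference of -0.01. Its direction thus depended on the brain. Ifi44 was the other gene with a negative fitted difference (-0.25, limma adjusted p = 0.344). Ifit2, Ifit3b, Mx1, Dhx58 and Slfn5 did not pass the detection filter.

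Of the 35 genes, 21 were higher in tag-positive cells in all 4 brains, against 17.4% of all genes. In 8 the levels of the classes did not overlap over brains, all 8 being higher in tag-positive cells. Of all genes 18.5% did not overlap, in either direction. The count of 8 is near that background, and the share of all genes higher without overlap was not taken. Cells of clusters 3 and 6 made up 57.3% to 74.8% of the tag-positive cells. Cells of clusters 0, 2 and 7 made up 12.7%, 9.25%, 65.7% and 70.1% of the tag-negative cells in the hashtag 1 to 4 brains, and cluster 1 made up 44.0%, 57.9%, 15.5% and 10.7%. Median depth was 4670.5, 5924, 13823 and 13705.5 UMIs a cell in tag-negative cells of the hashtag 1 to 4 brains. In tag-positive cells it was 3876, 3502, 4206 and 4471. The cells against which the immune cells were compared were therefore not alike in the 4 brains. The part of make-up and depth in the differences was not tested.

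Genes that make or carry the interferon signal were taken from a list of 37, of which 32 were in the table and 22 were tested. Of these 11 were higher in tag-positive cells by limma, where 7.6% of all genes were, and the other 11 did not pass, the list having been chosen with results of these data known. Among receptors, Ifngr1 (2.51) and Ifngr2 (1.42) rose, while Ifnar1 and Ifnar2 did not pass (0.44 and 0.83, limma adjusted p = 0.296 and 0.0808). Among kinases and STAT proteins, Jak1 (0.93) and Stat3 (1.15) rose. Irf8 (2.26) and Irf5 (2.18), factors of myeloid cells, rose, as did Irf2 (1.16), the sensor adaptor Tmem173 (STING, 1.44) and the Toll-like receptor adaptor Myd88 (1.08). The chemokines Ccl5 (3.74) and Cxcl10 (1.78) rose. The feedback inhibitors Socs1 and Socs3 did not pass (0.25 and 0.60, limma adjusted p = 0.423 and 0.115). These numbers are log2 differences.

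Ifnb1 and Ifng, named after their values were seen, encode interferon beta and gamma. In cluster 3 Ifnb1 gave 5 UMIs and Ifng 6, out of 10 and 18 in all cells, so the transcripts of the interferons themselves were near the limit of detection at this depth. Cxcl9, a target of interferon gamma, gave 92 of its 160 UMIs in cluster 3, where it was 0.0716, 0.110, 0.179 and 1.04 UMIs per 10000 in the hashtag 1 to 4 brains. Cxcl10 was 1.25, 0.772, 1.14 and 3.49 in cluster 3. For both the hashtag 4 brain stood above the other brains. Tlr3, a sensor of double-stranded RNA, had its highest median in choroid plexus-like cluster 1 (0.183), where the members were lowest.

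Over the 35 profiles of a cluster in a brain with at least 20 cells, the genes outside the list whose log2 level was most like the log2 summed level of the members were B2m (Pearson r 0.938), Ly6e (0.923), Fxyd5 (0.918), Il2rg (0.906) and Shisa5 (0.896). The profiles share brains, a library and depth, so the coefficients are descriptions. B2m encodes the light chain of MHC class I, and Il2rg the common gamma chain of cytokine receptors. The median r was 0.738 for the tested members, which contribute to the sum themselves, and 0.144 over all genes.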

How the data were processed

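The submitters' processing notes name Cell Ranger 2.1, Seurat 2.3.4 and mm10 without giving their roles, and CITE-seq-Count 1.3.4 counted the tags, per the labels. The authors deposited natural log values, ln(1 + UMIs per 10000), for 4668 cells, and a metadata table with UMI counts, antibody tag counts, hashtag class and cluster. Values were unlogged, and 99.8% of nonzero values gave whole UMI counts within 0.01. Cell totals ran from 2495 to 43038 UMIs. The mitochondrial fraction of each cell was used as deposited, and 8 other numeric columns of the deposited metadata were not used. No doublet caller was run, and the 3 libraries (RNA, antibody tags, hashtags) share their cell barcodes.

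The replicate was the brain (hashtag class). A single animal stands behind each. The p-values rest on how the difference between tag classes varied over these brains, with each gene's spread drawn towards that of other genes. Both tag classes come from the same animals, which pairs them (same-brain deviations correlated at 0.16, 0.232, 0.247 and 0.268). Limma 3.58.1 was fitted to log2(mean per 10000 + 0.1) with the brain as a block and an intensity trend, two-sided, with Benjamini-Hochberg adjustment over all genes with a UMI in 5% of cells or more. A pseudocount understates differences of low genes. On simulated data with 200 genes changed by a log2 fold of 2, 97% were recovered, with 8 false calls, among 9355 genes. The simulated counts had the same setting for spread in all genes and no effect of brain. Only genes with more than 5 expected counts in each profile were changed. The simulation thus does not give the recovery of low genes or of smaller differences. Immune cells were clustered again with scanpy 1.11.5 and leidenalg 0.10.2 at resolution 1. EdgeR 4.0.16, other pseudocounts, filters, scalings, tag thresholds, hashtag purity and leaving out each brain were alternatives.

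Members with at least 1000 UMIs, or with most of their UMIs in 1 cluster, were given per brain. A gene of the list of other pathway genes is not reported here and is left out of its counts. The members and lists were chosen with earlier results of these data known. The 2 counts of genes by highest brain under other settings were added after seeing the data.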

Additional observations from a re-analysis of the deposited data

Results flagged for a closer look

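Cmpk2, the nucleotide kinase gene next to Rsad2, had 1 brain far from the others in the comparison of CD45-tag-positive with tag-negative cells. The log2 difference was -0.35 in the hashtag 2 brain and 0.76, 0.88 and 0.86 in the hashtag 1, 3 and 4 brains, and the fitted difference of 0.54 did not pass (limma adjusted p = 0.184). It was 1 of 35 genes examined in this way, and chance alone marks about 1 in 20.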

How the results depend on the processing

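The number of interferon-induced genes higher in CD45-tag-positive cells (12) became 6 with a pseudocount of 1, 7 with median-of-ratios scaling, 6 with cells of at least 80% own hashtag, and 6 without the brain as a block (the pairing). Leaving out each brain gave 6 to 12 such genes. Over all genes, the 711 higher became 1073 with a 1% detection filter, 455 with median-of-ratios scaling and 414 with 80% own hashtag, and 497 to 705 without 1 brain. The 275 lower became 113 with a pseudocount of 1, 98 with no filter, 14 with summed UMIs, 31 with median-of-ratios scaling, 93 with 80% own hashtag and 16 with edgeR, and 27 (without the hashtag 1 brain) to 520 (without the hashtag 4 brain). Bst2 (-0.01) ranged from -0.19 to 0.12 without 1 brain, and turned to 0.12 without the hashtag 3 brain and to 0.06 without the hashtag 4 brain. None of the 35 genes was called lower in any of the 15 alternatives. The brain block changed no other call than those of Zbp1, Isg15, Oas1a, Ifitm3, Irf7 and Xaf1. With 80% own hashtag the median summed level became 101.1 in cluster 3, 52.2 in cluster 4 and 29.8 in cluster 5, with brains of under 20 cells dropped, and summed UMIs gave 41.7 in cluster 4. Without Ifitm3, Bst2, Lgals3bp and Ifi27l2a the medians in clusters 0 to 10 were 6.59, 2.80, 5.32, 25.7, 14.1, 4.92, 10.8, 11.4, 7.88, 6.68 and 6.49. For values pooled over cells, resolution 0.5 and 1.5 gave 109.0 and 137.5 for marrow-derived-like and 71.1 and 49.97 for microglia-like cells, and 1.5 gave 67.6 for B cell-like cells. With 80% own hashtag these were 132.5, 64.5 and 63.2, and neutrophil-like cells had 43.5. Shares of cells with at least 5 genes, in clusters 0 to 10, were 86.5%, 39.1%, 87.9%, 93.8%, 70.8%, 31.4%, 51.1%, 98.6%, 34.1%, 64.2% and 59.0% without thinning. With at least 3 genes they were 63.8%, 28.2%, 64.8%, 96.3%, 77.3%, 49.6%, 71.3%, 78.3%, 43.8%, 61.1% and 62.4%, and with at least 8 they were 5.82%, 0.682%, 5.40%, 58.4%, 13.9%, 5.75%, 5.83%, 13.7%, 3.78%, 6.79% and 5.98%. Leaving out each brain, with the threshold of 5 genes, gave 16.2% to 26.9%, 3.10% to 5.26%, 19.7% to 27.6%, 81.9% to 89.5%, 37.7% to 50%, 8.90% to 23.2%, 27.4% to 53.8%, 34.1% to 41.9%, 11.5% to 29.8%, 16.5% to 25% and 6.12% to 28.6%. The lowest values in clusters 5 and 10 came without the hashtag 4 brain and the highest in clusters 6 and 8 without the hashtag 1 brain. Cluster 3 had the highest share under each setting except without thinning, where cluster 7 did. The cause of these changes was not tested. Low depth limits the genes under 500 UMIs, of which there were 12.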
